A study of Mus musculus with 12 samples.

Results

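The markers of satellite cell identity and quiescence described here are 10 genes, Pax7, Cd34, Calcr, Spry1, Sdc4, Vcam1, Cdh15, Fgfr4, Foxo3 and Tenm4. They were taken by symbol from 55385 genes counted in muscle satellite cells, and each of the 10 was found as 1 row of the female and 1 row of the male count table and passed the filter on low counts in both. The cells came from hindlimb muscle of C57BL/6J mice and were frozen directly after isolation, 1 animal per library. The 12 libraries formed 4 groups of 3 animals, female Keap1 knockout (KO), female Hetz, male KO and male Hetz. The labels call the comparison genotype heterogeneous or Hetz, which was read here as heterozygous, so that the controls would carry a changed Keap1 allele too. The age of the animals, the promoter or Cre that deleted Keap1 and the cells in which it was deleted are not given in the sources used here. KEAP1 is the adaptor that leads the transcription factor NRF2, encoded by Nfe2l2, to degradation.

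Satellite cells are the stem cells of skeletal muscle and lie between the muscle fibre and its basal lamina. In uninjured muscle they rest outside the cell cycle, a state held by signals from the niche, and after injury they activate, divide and either form new muscle or return to rest. PAX7 is the transcription factor that defines the lineage. The other 9 genes encode surface receptors and adhesion proteins used to recognise or sort these cells, or factors that in mouse keep them quiescent.

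Total counts ran from 13042039 to 19273245 per library, and the 10 markers were covered by 136 to 201524 counts each per library. Replicate libraries differed by more than counting noise in every pair (chi-square over its degrees of freedom 12.4 to 65.2). For the label of satellite cells, Pax7, Cdh15, Calcr and Chrdl2, given below, and Myf5, a myogenic factor, were looked up. All were present in every library. Myf5 had 1037 ± 97.0 CPM (counts scaled by library size, SD, n = 3) in female KO and 1395 ± 499 CPM in female Hetz libraries. In males Myf5 had 1658 ± 229 CPM in KO and 1342 ± 47.0 CPM in Hetz libraries. Presence does not measure purity, since markers of other cell types were detected as well. Keap1 (GRCm38 chr9:21229730-21239361) stood at 11.9, 12.95 and 11.02 CPM in female KO, against 9.56, 7.18 and 7.95 CPM in female Hetz libraries, and at 6.30, 7.74 and 7.70 CPM in male KO, against 9.78, 5.33 and 8.08 CPM in male Hetz libraries. In females it was thus higher in the KO libraries, with an exact two-sided permutation p of 0.1, which no split of 3 against 3 can go below, and in males the groups overlapped (exact p = 0.8). These counts cover all exons and cannot tell a deleted exon from a retained one, which leaves the genotypes unchecked by this gene, and KO and Hetz are the names that the labels give. Females and males were counted in separate tables, and sex cannot be told apart from a batch of preparation or sequencing.

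Among the surface proteins, Cd34 fell in KO females. CD34 is a sialomucin of the cell surface, also found on endothelial cells and fibro-adipogenic progenitors. Cd34 (ENSMUSG00000016494, GRCm38 chr1:194938819-194961279, plus strand) had 62.9, 76.0 and 72.1 CPM in female KO, against 167, 114 and 131 CPM in female Hetz libraries. All 3 KO libraries lay below all 3 Hetz libraries. The means were 70.3 ± 6.68 and 137 ± 27.3 CPM (SD, n = 3 each, as for all values given as ± here unless named otherwise), and the log2 fold change was -0.96 ± 0.159 (SE; 95% interval -1.31 to -0.62; edgeR adjusted p = 0.0061), 1.95-fold lower. Fewer cells of a type and less RNA per cell cannot be told apart in such bulk libraries. In males, Cd34 had 135.9, 160 and 187.8 CPM in KO, against 188.5, 147 and 187 CPM in Hetz libraries, and the groups overlapped (161 ± 26.0 and 174 ± 23.8 CPM; log2 fold change -0.11, interval -0.44 to 0.22, edgeR adjusted p = 0.835). Without the library KO166 the female call was lost (-0.89 on the log2 scale, edgeR adjusted p = 0.0566). The endothelial marker Pecam1 had 11.5 ± 3.78 CPM in female KO and 8.27 ± 1.24 CPM in female Hetz libraries, and Pdgfra, which marks fibro-adipogenic progenitors, 3.46 ± 0.879 and 3.11 ± 1.43 CPM. Over the whole lists in females, 9 of 10 endothelial genes had positive log2 fold changes (median 0.44; Tek, the exception, -0.53) and 7 of 10 fibro-adipogenic progenitor genes negative ones (median -0.45; lowest Pi16, -1.67), with 0 past the threshold in either, and the part of these cells in the lower Cd34 was not tested.

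Spry1 fell in KO females as well. SPRY1 is an intracellular inhibitor of growth factor receptor signalling, and in mouse it is needed for cycling satellite cells to return to quiescence. Spry1 (ENSMUSG00000037211, chr3:37639947-37644598, plus strand) had 84.2, 135 and 87.9 CPM in female KO, against 217, 241 and 190 CPM in female Hetz libraries. The highest KO library, KO178, still lay below the lowest Hetz library. The means were 102 ± 28.1 and 216 ± 25.2 CPM, with a log2 fold change of -1.08 ± 0.185 (SE; interval -1.48 to -0.68; edgeR adjusted p = 0.00736), 2.11-fold lower. In males, Spry1 had 230, 220 and 209 CPM in KO, against 251, 244 and 362 CPM in Hetz libraries. The male groups lay apart too, but the change did not pass (220 ± 10.6 and 286 ± 66.6 CPM; log2 fold change -0.37, interval -0.70 to -0.04, edgeR adjusted p = 0.342). The female call was lost without KO166 (-0.96 on the log2 scale, edgeR adjusted p = 0.0624) and without KO188 (-0.99, adjusted p = 0.0513). Of the exonic bases of Spry1, 24.4% overlap the antisense gene Gm42922. Counting was blind to strand and left out multi-overlapping fragments, so the shared bases may be undercounted for both genes. Gm42922 had at most 0.617 CPM in any library, a value that leaves out such fragments too.

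The 250 bases before the RefSeq starts of Cd34 and Spry1, the genes that passed, are shown with those of Cdh15, which holds the same searched motif as Cd34 (RefSeq, GRCm38.p6, plus strand, 5′ to 3′, at chr1:194938571-194938820, chr3:37639697-37639946 and chr8:122848124-122848373). Capitals mark a match to TGACNNNGC, the core of the antioxidant response element that NRF2 binds with small MAF proteins, searched on both strands.
Cd34: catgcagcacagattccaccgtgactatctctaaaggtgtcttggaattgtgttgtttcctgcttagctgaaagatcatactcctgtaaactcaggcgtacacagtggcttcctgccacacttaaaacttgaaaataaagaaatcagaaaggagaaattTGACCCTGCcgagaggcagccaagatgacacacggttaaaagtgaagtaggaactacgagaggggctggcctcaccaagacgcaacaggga
Spry1: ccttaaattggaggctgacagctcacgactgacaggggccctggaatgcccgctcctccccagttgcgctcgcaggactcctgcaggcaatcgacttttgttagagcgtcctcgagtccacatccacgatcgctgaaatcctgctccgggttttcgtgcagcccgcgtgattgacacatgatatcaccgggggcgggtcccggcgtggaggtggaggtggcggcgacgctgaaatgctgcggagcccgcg
Cdh15: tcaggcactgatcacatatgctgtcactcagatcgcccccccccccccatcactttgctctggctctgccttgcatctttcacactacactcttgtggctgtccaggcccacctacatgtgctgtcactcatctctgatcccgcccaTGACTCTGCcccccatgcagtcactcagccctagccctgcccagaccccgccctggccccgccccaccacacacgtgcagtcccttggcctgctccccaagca
The match begins at position -91 from the RefSeq start in Cd34 and at -103 in Cdh15. Vcam1 had no RefSeq window here and was not searched. The match was found in 2 of the 11 windows of the other markers and in 10.2% of 32851 RefSeq windows of this length. The letters TGAC that open it also open the AP-1 motif TGACTCA. The RBPJ core TGGGAA, bound downstream of Notch, was in 0 of the 11 marker windows and 21.6% of all windows, and the FOXO core GTAAACA in 0 of the 11 and 3.17% of all. A match is a run of letters in the window and no measure of binding.

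**Figure D1:**
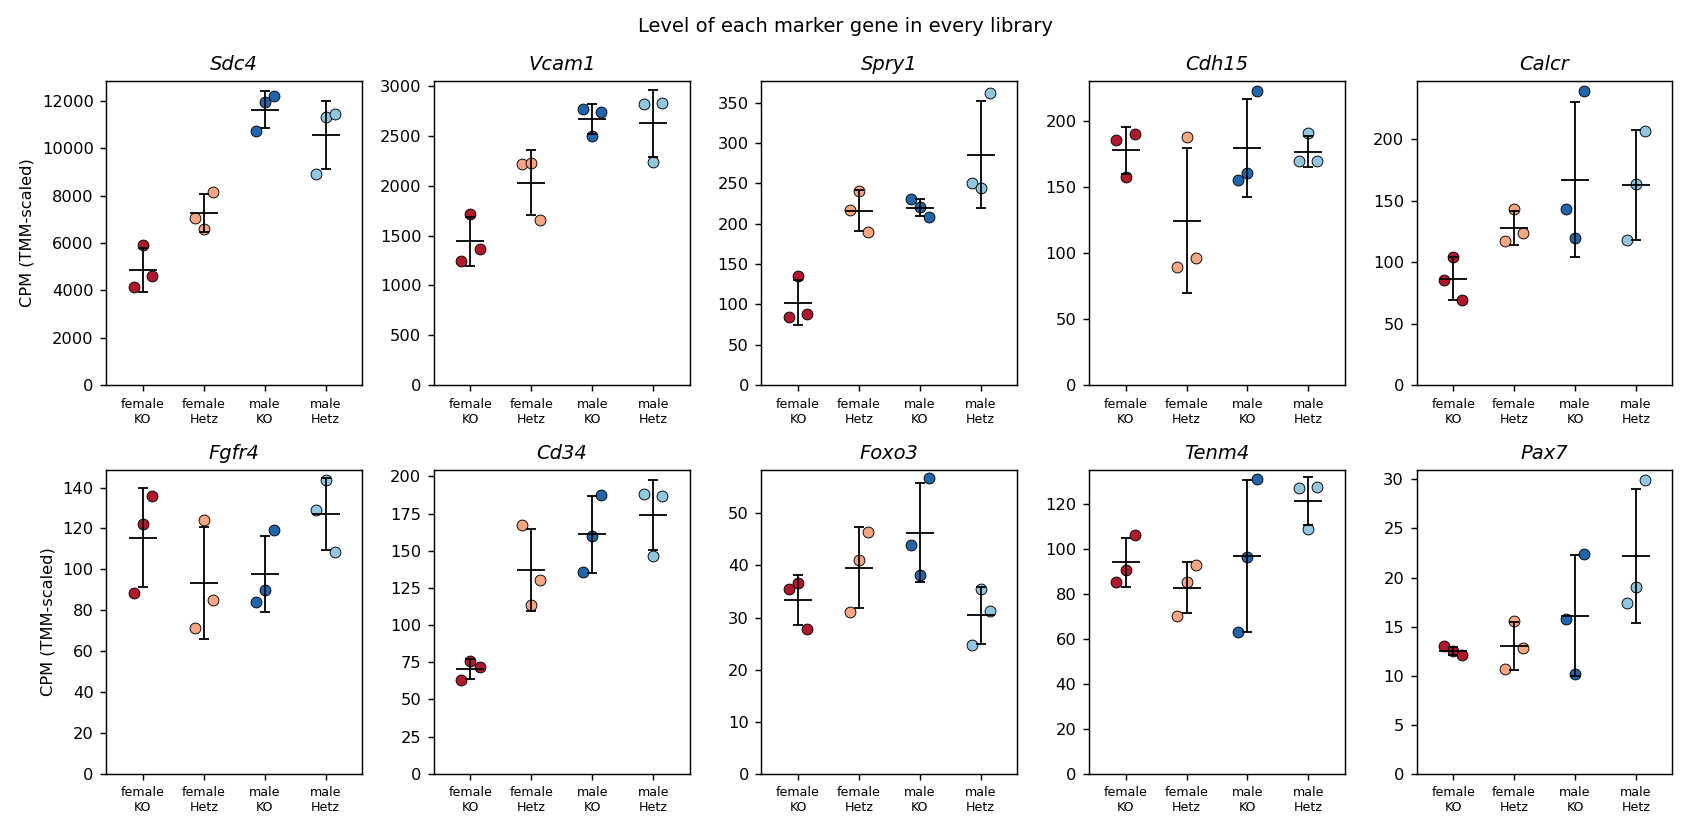
Level of each marker gene in every library, in CPM on a linear axis from 0, with 1 panel per gene and the groups female KO, female Hetz, male KO and male Hetz from left to right. Points are libraries, lines the mean and bars the SD of 3 animals; Cd34 and Spry1 are the panels in which all female KO points lie well below female Hetz (70.3 against 137 CPM and 102 against 216 CPM in the mean).

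Calcr, Sdc4 and Vcam1, also surface proteins, had negative estimates in KO females that did not pass the test. Calcr, the calcitonin receptor, a G protein-coupled receptor that in mouse holds satellite cells in quiescence (chr6:3685680-3764714), had 85.7, 104 and 69.5 CPM in female KO, against 117, 144 and 124 CPM in female Hetz libraries. Sdc4, the heparan sulfate proteoglycan syndecan-4 (chr2:164424247-164443887), had 4125, 5903 and 4592 CPM in female KO, against 7061, 6598 and 8148 CPM in female Hetz libraries. In both genes every KO library lay below every Hetz library. The log2 fold change was -0.57 for Calcr (interval -0.92 to -0.21, edgeR adjusted p = 0.0998) and -0.58 for Sdc4 (interval -0.96 to -0.19, edgeR adjusted p = 0.122). Sdc4 passed without Hetz165 (-0.64, edgeR adjusted p = 0.0407). Vcam1, an adhesion protein that binds integrins (chr3:116109949-116129688), had 1248, 1722 and 1365 CPM in female KO, against 2216, 2225 and 1658 CPM in female Hetz libraries. Its groups overlapped only through KO178, which lay above Hetz181 (log2 fold change -0.49, interval -0.87 to -0.11, edgeR adjusted p = 0.174).

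In males these 3 genes lay close in the genotypes. Calcr had 167 ± 63.2 CPM in KO and 163 ± 44.6 CPM in Hetz libraries (log2 fold change 0.05, interval -0.52 to 0.61). Sdc4 had 11635 ± 785 CPM in KO and 10549 ± 1431 CPM in Hetz libraries (0.15, interval -0.17 to 0.46). Vcam1 had 2673 ± 148 CPM in KO and 2630 ± 335 CPM in Hetz libraries (0.03, interval -0.28 to 0.33). The male groups of all 3 overlapped. The edgeR adjusted p of the male change was 0.97 for Calcr, 0.753 for Sdc4 and 0.97 for Vcam1. The male intervals of all 3 do not reach the female point estimates, but these have intervals of their own. For Calcr and Vcam1 the male and female intervals overlap. The difference between the sexes is tested below.

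Cdh15, M-cadherin, which joins satellite cells to the fibre (chr8:122847966-122867397), had 186, 157 and 190 CPM in female KO, against 89.2, 188.03 and 96.3 CPM in female Hetz libraries. The Hetz group was split, with Hetz165 among the KO values and the other two well below them. The log2 fold change was 0.51 (interval -0.04 to 1.06, edgeR adjusted p = 0.318), and without Hetz165 it was 0.94 and passed (edgeR adjusted p = 0.00267). In males it had 155, 161 and 222 CPM in KO, against 170, 191 and 170 CPM in Hetz libraries, with overlap (0.02, edgeR adjusted p = 0.972). Fgfr4, a fibroblast growth factor receptor of the muscle lineage (chr13:55152640-55168759), had 88.7, 122 and 136 CPM in female KO, against 71.4, 124 and 84.9 CPM in female Hetz libraries, and 84.0, 90.0 and 119 CPM in male KO, against 129, 144 and 109 CPM in male Hetz libraries. Groups overlapped in both sexes, with a log2 fold change of 0.30 in females (interval -0.16 to 0.77, edgeR adjusted p = 0.487) and -0.38 in males (interval -0.72 to -0.04, edgeR adjusted p = 0.345).

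Tenm4, a teneurin of the cell surface whose loss in mouse disturbs satellite cell quiescence (chr7:96171246-96911093), had 94.2 ± 10.9 CPM in female KO and 82.9 ± 11.5 CPM in female Hetz libraries. In males it had 63.1, 96.7 and 131 CPM in KO, against 127, 109 and 128 CPM in Hetz libraries, so the male KO libraries spanned from well below to above the Hetz group. Neither difference passed (log2 fold change 0.18, edgeR adjusted p = 0.556 in females, and -0.32, adjusted p = 0.607 in males).

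Of the transcription factors, Pax7 was nearly level between the female genotypes. Pax7 (chr4:139737062-139833528) had 12.97, 12.5 and 12.1 CPM in female KO, against 10.7, 15.5 and 12.8 CPM in female Hetz libraries. The KO values lay inside the Hetz range, and the log2 fold change was -0.06 (interval -0.47 to 0.36, edgeR adjusted p = 0.906), so a change of the size of that in Cd34 lies outside the interval. In males Pax7 had 15.8, 10.1 and 22.4 CPM in KO, against 17.4, 19.1 and 30.0 CPM in Hetz libraries, with overlap and a wide interval (-0.45, interval -1.06 to 0.15, edgeR adjusted p = 0.576). Foxo3, a forkhead factor that promotes quiescence in mouse satellite cells (chr10:42181841-42276755), had 35.6, 36.6 and 27.8 CPM in female KO, against 31.2, 41.0 and 46.5 CPM in female Hetz libraries. In males it had 44.0, 38.2 and 56.8 CPM in KO, against 24.6, 35.4 and 31.2 CPM in Hetz libraries. The male KO libraries all lay above the male Hetz libraries, while the female groups overlapped. The log2 fold change was -0.25 in females (interval -0.63 to 0.14, edgeR adjusted p = 0.498) and 0.61 in males (interval 0.23 to 0.99, unadjusted p = 0.00416, edgeR adjusted p = 0.168).

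**Figure D2:**
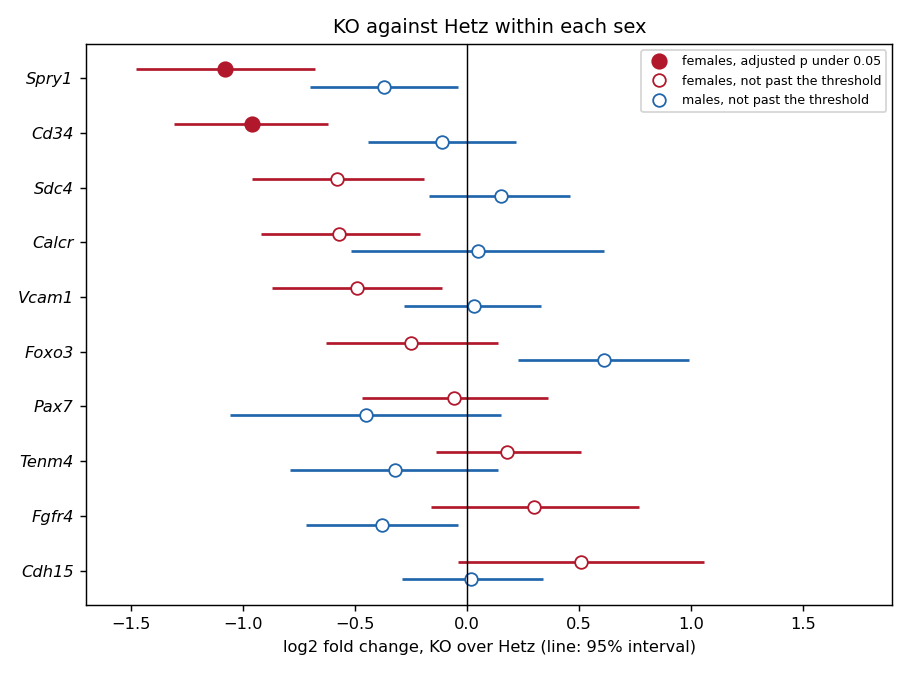
Log2 fold change of each marker, KO over Hetz, with its 95% interval, females as the upper and males as the lower mark of each gene. Filled points passed an adjusted p of 0.05: Spry1 (-1.08) and Cd34 (-0.96) in females; Foxo3 in males (0.61) is the farthest to the right and did not pass.

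Counted together, 2 of the 10 markers fell and 0 rose in KO females, while 0.983% of the 14036 genes tested in females fell, 1.29% rose and 2.27% passed in either direction. Of the 10, 4 lay wholly below the Hetz libraries and 0 wholly above, against 10.4% of all genes below and 22.3% in either direction. In males 0 of 10 passed with edgeR, against 0.861% of 13361 genes (0.704% higher and 0.157% lower). By unadjusted edgeR p, 3 were under 0.05 in males (Foxo3, Spry1 and Fgfr4) and 5 in females. The share of all genes under this unadjusted threshold was not counted. DESeq2 and limma voom also called 0 in males. In males 1 marker lay wholly below (Spry1, 7.76% of all genes) and 1 wholly above (Foxo3, 9.24% of all genes; 17.0% in either direction). The median log2 fold change of the 10 was -0.37 in females, where that of all genes was 0.00, and -0.04 in males, where it was 0.01. In females 7 of the 10 estimates were negative, those of Spry1, Cd34, Sdc4, Calcr and Vcam1 being the lowest, and 3 were positive (Cdh15, Fgfr4 and Tenm4). Genes of surface proteins were found on both sides. The female count of 2 became 0 without KO166, 1 without KO188 and 4 without Hetz165.

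Averaged over the sexes in 1 fit of all 12 libraries, Spry1 (-0.73, interval -0.99 to -0.46, edgeR adjusted p = 0.00257) and Cd34 (-0.54, interval -0.78 to -0.30, edgeR adjusted p = 0.0122) fell in KO animals, 2 of 10 against 1.27% of 14772 genes lower, 2.15% higher and 3.41% in either direction. Both still passed without any 1 of the 12 libraries. Whether the change differed between the sexes was tested as an interaction, and 0 of 10 markers passed, while 0.00677% of genes (1 gene) did. By unadjusted edgeR p, 6 of the 10 were under 0.05, a threshold at which the share of all genes was not counted. DESeq2 called 2 of the 10 (Cd34 and Sdc4) and 240 genes in all. With limma voom, 0 of the 10 and 1 gene in all were called. The female change minus the male change was -0.85 for Cd34 (interval -1.33 to -0.37, edgeR adjusted p = 0.169), -0.85 for Foxo3 (-1.40 to -0.30, 0.218), -0.72 for Sdc4 (-1.19 to -0.24, 0.222) and -0.70 for Spry1 (-1.23 to -0.17, 0.28). It was -0.51 for Vcam1 and 0.69 for Fgfr4 (edgeR adjusted p = 0.374 and 0.344). Without Hetz165 the difference passed for Cd34 (-0.97) and Cdh15 (0.92), each with an edgeR adjusted p of 0.0424, and for 206 genes in all. Without the filter on low counts it passed for Cd34, Foxo3 and Sdc4 (edgeR adjusted p = 0.01, 0.0346 and 0.0469), and for 358 genes in all. So by edgeR with the filter and by limma voom the female decreases were not shown to differ from the male changes, while DESeq2 called the difference for Cd34 (adjusted p = 0.0277) and Sdc4 (0.0328).

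Compared directly, females had lower levels than males of most of these markers over both genotypes, with the batch limit above. Of the 10, 6 were lower in females and 0 higher, against 14.6% of all genes lower, 13.2% higher and 27.8% in either direction, and all 10 estimates were negative (median -0.61, all genes 0.01). Sdc4 differed most (log2 difference, female minus male, -0.91, edgeR adjusted p = 2.03e-05), then Cd34 (-0.79, 8.82e-05), Spry1 (-0.77, 2.69e-04), Calcr (-0.66, 0.00724) and Vcam1 (-0.65, 4.41e-04). Pax7 was lower as well (-0.58, edgeR adjusted p = 0.0199), a call lost without Hetz164 (0.0574), KO255 (0.0695) or Hetz249 (0.081). Cdh15 (-0.28), Tenm4 (-0.31), Fgfr4 (-0.12) and Foxo3 (-0.06) did not pass, though Cdh15 passed without Hetz165 (-0.49, edgeR adjusted p = 0.00243) and Tenm4 without KO240 (-0.42, 0.015). The 30 other genes of satellite cell identity and quiescence were mixed, with 18 positive and 12 negative estimates (median 0.10). Of these 30, 9 were higher in females, 2 were lower and 19 were not called. Of 16 genes of activation, commitment and proliferation, 9 were higher and 2 lower (median 0.92). Of 16 immediate early genes, 0 were higher and 10 lower (median -0.49). Myofibre transcripts were higher in females in 8 of 8 tested genes and endothelial ones lower in 10 of 10. The part of these lists in the sex difference was not tested.

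Scaled by gene length, the markers spanned a wide range of abundance. By mean TPM (transcript counts scaled by exon length and library size) over the 12 libraries the order was Sdc4 (10691, rank 8 of 31671 detected genes), Vcam1 (790), Spry1 (225), Cdh15 (163.8), Calcr (111), Fgfr4 (99), Cd34 (59.2), Foxo3 (15.98), Tenm4 (15.1) and Pax7 (8.70, rank 7430). Pax7, the gene that defines the lineage, was thus the least abundant of the 10 in TPM. Sdc4 stood above Vcam1, and Vcam1 above Spry1, in 12 of 12 libraries, as did Cd34 above Foxo3 and Tenm4 above Pax7. Calcr and Fgfr4 overlapped except in female KO libraries, where Fgfr4 lay wholly above (93.54 to 126.0 against 58.31 to 88.99 TPM). Foxo3 and Tenm4 overlapped except in male Hetz libraries, where Tenm4 lay wholly above (16.22 to 19.17 against 10.31 to 14.60 TPM). In female KO libraries the order of Spry1 and Cdh15 was turned round in the mean, with Spry1 at 121 ± 29.8 and Cdh15 at 189 ± 26.1 TPM, against Spry1 at 250 ± 38.9 and Cdh15 at 131 ± 64.7 TPM in female Hetz libraries. Cd34 had 33.2 ± 1.42 TPM in female KO and 62.8 ± 9.54 TPM in female Hetz libraries, and 68.0 ± 11.9 TPM in male KO and 72.7 ± 9.58 TPM in male Hetz libraries.

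**Figure D3:**
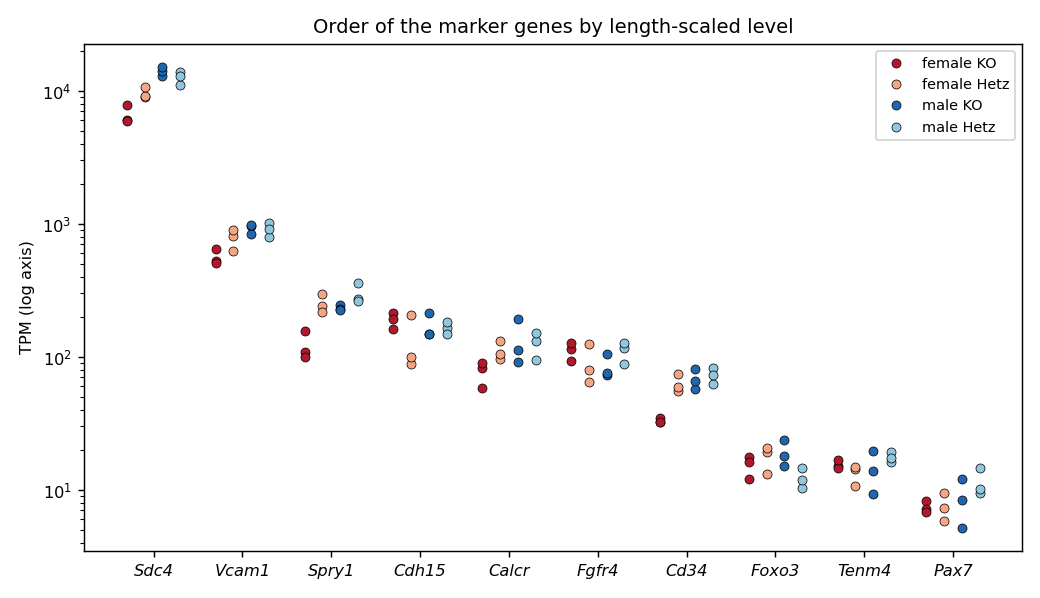
Length-scaled level of each marker in every library, in TPM on a log axis, genes ordered by their mean over 12 libraries and groups shown as female KO, female Hetz, male KO and male Hetz within each gene. Sdc4 (mean 10691 TPM) lies far above the rest and Pax7 (8.70 TPM) is lowest; Spry1 and Cdh15 change places in female KO libraries.

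The markers did not move as 1 block from animal to animal. The SD of log2(CPM + 1) within groups, pooled over the 4 groups, ran from 0.19 for Sdc4, 0.20 for Vcam1 and 0.22 for Cd34 to 0.36 for Pax7 and 0.37 for Calcr. Among female KO libraries, KO166 and KO188 lay below the mean of their sex in the median over the markers (-0.24 and -0.34 on the log2 scale), while KO178 lay at it (0.01). Among female Hetz libraries, Hetz165 lay highest (0.28), and Hetz164 (-0.02) was low in Cdh15 and Fgfr4 but high in Cd34. Among male KO libraries, KO255 lay above the mean (0.23) and KO240 and KO247 below it (-0.17 and -0.13). KO255 was also the male library with the most endothelial and red blood cell transcripts (327 and 79.5 CPM in sum, against 120 CPM for the lowest male KO library in endothelium and 16.7 CPM in red blood cells), and their part in its values was not tested.

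**Figure D4:**
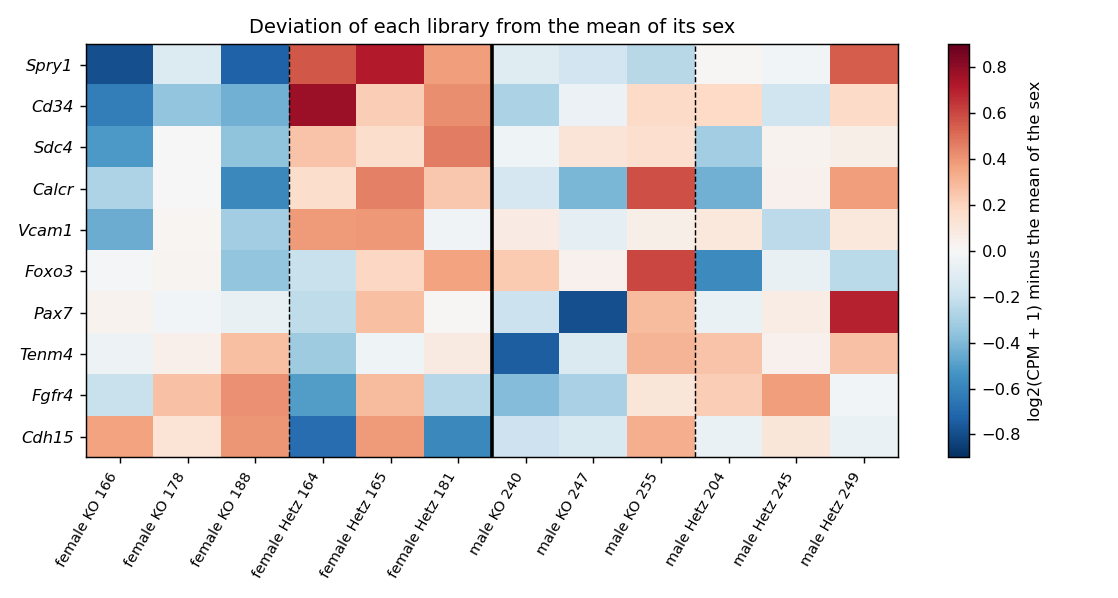
Deviation of each library from the mean of its sex in log2(CPM + 1), genes in rows and libraries in columns, with KO left of Hetz within females and then within males; red is above the mean and blue below. Female KO166 and KO188 are blue for Spry1, Cd34, Sdc4, Calcr and Vcam1, whereas KO178 is near 0 for Sdc4, Calcr and Vcam1.

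Over the 12 libraries, each gene centred within its sex, the genes whose profile of log2(CPM + 1) was most like Cd34 were D430020J02Rik (root-mean-square difference 0.158), Prodh, proline dehydrogenase (0.166), and Tspan7, a tetraspanin (0.168), where the median over 13062 genes was 0.438. For Spry1 they were Vwa1, a matrix protein (0.194), Bdkrb1, a bradykinin receptor (0.197), and Bdnf, a neurotrophin (0.199), with a median of 0.507. None of the other 9 markers was among the 3 nearest of either gene.

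Of 30 other genes of satellite cell identity and quiescence, 0 rose and 1 fell in KO females, with a median log2 fold change of 0.00. It was Chrdl2, a BMP-binding secreted protein, at 78.0 ± 18.9 CPM in female KO and 291 ± 72.5 CPM in female Hetz libraries (-1.90, edgeR adjusted p = 4.05e-04). In males 1 of the 30 rose and 1 fell (median -0.02). Chrdl2 fell there too, with 163.9 ± 42.8 CPM in KO and 425 ± 23.7 CPM in Hetz libraries (-1.37, edgeR adjusted p = 0.00162), and Notch2, a Notch receptor, rose, with 137 ± 6.36 CPM in KO and 85.4 ± 9.50 CPM in Hetz libraries (0.68, edgeR adjusted p = 0.0263). The call of Notch2 was lost without KO240, Hetz204, Hetz245 or Hetz249 (adjusted p 0.0615 to 0.222), whereas Chrdl2 passed in both sexes whichever library was left out.

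Relatives and partners of the markers mostly did not pass. Of 16 tested FGF receptors, sprouty, spred and syndecan relatives, 0 passed in females with edgeR (the smallest p was for Sdc3, 0.85, adjusted p = 0.0652), and 2 fell in males. These were Fgfr1, an FGF receptor, with 1575 ± 40.02 CPM in male KO and 2615 ± 360 CPM in male Hetz libraries (edgeR adjusted p = 0.0287), and Sdc1, syndecan-1, with 28.0 ± 1.002 and 48.1 ± 8.22 CPM (edgeR adjusted p = 0.0296). Fgfr1 was lost without KO240, Hetz204 or Hetz249 (adjusted p 0.154 to 0.234), and Sdc1 without any of these or Hetz245 (0.0702 to 0.204). Among FOXO relatives and targets 2 of 14 rose in females and 0 passed in males. Cited2, a transcriptional co-regulator, had 147 ± 10.3 CPM in female KO and 87.0 ± 16.2 CPM in female Hetz libraries (edgeR adjusted p = 0.0218), and Txnip, a thioredoxin-binding protein, 96.4 ± 18.8 and 55.8 ± 10.7 CPM (edgeR adjusted p = 0.0398). Each lost its call without KO166, KO188 or Hetz181, Cited2 also without KO178 and Txnip without Hetz164 (adjusted p 0.0702 to 0.139 and 0.103 to 0.173). Calcitonin receptor partners (7 tested in females, 6 in males), cadherin and VCAM1 partners (8 and 9), and teneurins, latrophilins and CD34 relatives (9 and 9) had 0 calls within either sex with edgeR. In the average of the sexes, however, Cdh4, R-cadherin, was lower (-1.02, interval -1.42 to -0.62, edgeR adjusted p = 0.00437) and stayed so without any 1 library. It had 2.33 ± 0.482 CPM in female KO and 4.95 ± 1.13 CPM in female Hetz libraries (-1.09, edgeR adjusted p = 0.0754), and 9.15 ± 2.76 CPM in male KO and 17.7 ± 4.39 CPM in male Hetz libraries (-0.95, edgeR adjusted p = 0.117), with the groups apart in each sex. Of the genes in the other lists, the average also called Chrdl2, Sdc1, Btg2, Ier2, Cd82, Tek and Jun lower and 0 genes higher; Cd82 was lost in 2, Tek in 8 and Jun in 9 of the 12 fits that left out 1 library.

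Genes of activation and early response were set beside the quiescence markers. Of 16 genes of activation, commitment and proliferation, 0 rose and 1 fell in females (median 0.21), the cyclin-dependent kinase inhibitor gene Cdkn1a with 784 ± 58.1 CPM in female KO and 1229 ± 164.3 CPM in female Hetz libraries (edgeR adjusted p = 0.0469), and 0 passed in males (median -0.05). Its call was lost without KO166, KO178, KO188 or Hetz181 (adjusted p 0.127 to 0.202). Of 16 immediate early genes, which rise within the time of a cell isolation, 5 fell and 0 rose in females (median -0.46), and 0 passed in males (median -0.05). Btg2, an antiproliferative factor, had 267 ± 12.8 CPM in female KO and 533 ± 59.9 CPM in female Hetz libraries (edgeR adjusted p = 0.0019) and passed whichever library was left out. The calls of the others with the smallest p were less stable. Ier2 was lost without KO178 or KO188 (adjusted p 0.0601 to 0.0628). Dusp1 was lost without KO166, KO178, KO188 or Hetz164 (0.0515 to 0.0769). Hspa1a was lost without KO178, KO188, Hetz165 or Hetz181 (0.0678 to 0.118). The summed CPM of this list was 10857 to 11122 in female KO and 14081 to 17205 in female Hetz libraries, and its part in the lower Cd34 and Spry1 was not tested. The share of counts in mitochondrial rRNA genes was higher in KO than in Hetz females (0.733 to 1.029% and 0.302 to 0.507%) and lower in KO than in Hetz males (0.226 to 0.407% and 0.409 to 0.601%), and its part was not tested either.

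Markers of other cells were followed as whole lists. Of 14 tested leukocyte and macrophage genes 3 fell in KO females (median -0.96), and the summed CPM was 49.1 to 78.2 in KO and 120 to 175 in Hetz libraries (exact two-sided permutation p = 0.1, the smallest possible), while 0 of 8 passed in males. The one with the smallest p was Cd74, the invariant chain, with 22.8 ± 7.03 CPM in female KO and 61.8 ± 13.3 CPM in female Hetz libraries (edgeR adjusted p = 0.00389), which passed whichever library was left out. H2-Ab1 was lost without KO188 or Hetz164 (adjusted p 0.0616 to 0.0651) and Lyz2 without these or KO178 (0.13 to 0.164), and the part of these cells in the marker results was not tested. Endothelial genes (10 tested, sums of 50.7 to 89.2 CPM in female KO and 66.0 to 69.1 CPM in female Hetz) and fibro-adipogenic progenitor genes (10 tested, 4500 to 5276 CPM in female KO and 4751 to 7362 CPM in female Hetz) had 0 calls in females, and their sums overlapped. In males these sums overlapped as well, at 120 to 327 CPM in KO and 196 to 214 CPM in Hetz for endothelium, and 3805 to 4517 CPM in KO and 2869 to 4606 CPM in Hetz for the progenitors. Pericyte and smooth muscle, myofibre, Schwann cell, tenocyte and red blood cell genes had 0 calls in either sex with edgeR. The myofibre genes had a median of 0.93 in females, with sums of 103 to 594 CPM in KO and 104 to 319 CPM in Hetz libraries, and of 0.37 in males (31.9 to 117 CPM in KO and 33.6 to 47.5 CPM in Hetz), and their part was not tested. No defining marker of another type was at 0 in all libraries; Ptprc, the leukocyte common antigen, had 1.23 ± 0.656 CPM in female KO and 2.26 ± 0.908 CPM in female Hetz libraries.

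**Figure D5:**
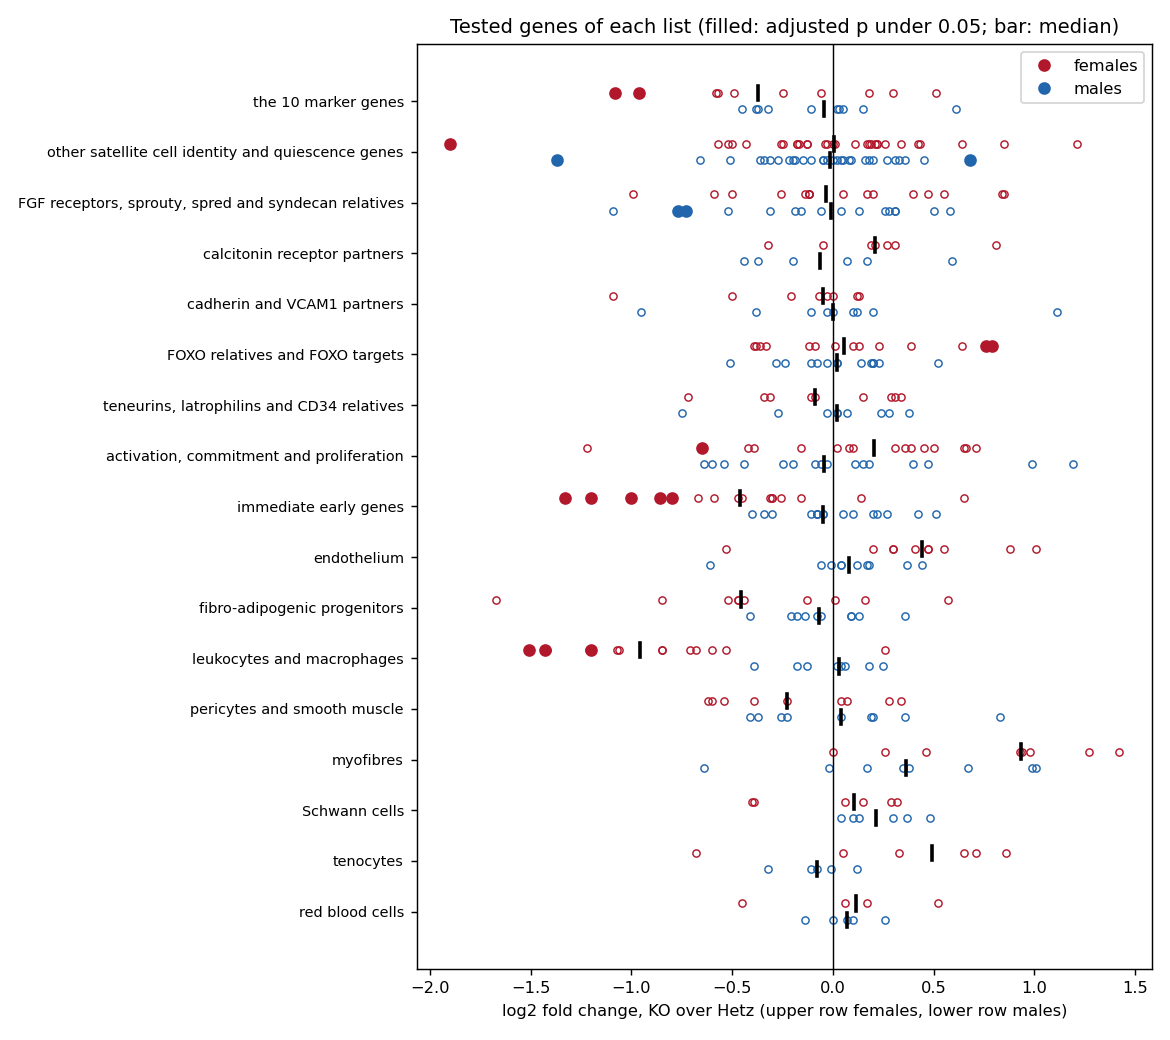
Log2 fold change, KO over Hetz, of every tested gene of each list, females in the upper and males in the lower row of each list, with a bar at the median. Filled points passed an adjusted p of 0.05; the 10 markers have 2 filled points in females and 0 in males, and the immediate early list 5 in females and 0 in males.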

How the data were processed

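The deposited tables hold whole fragment counts, 1 row per Ensembl gene. Per the file headers, the authors counted over exons with featureCounts 2.0.0 and the Ensembl GRCm38 annotation of release 99, without strand and without multi-mapped or multi-overlapping fragments, so counts of paralogs and overlapping genes are uncertain. No deposited value is an estimated count, and none was rounded. STAR, Subread, DESeq2 and mm10 are named per the submitters' processing notes; their versions and settings are not given in the sources used here. Per the labels' protocols, cDNA was made by Smart-Seq2, which has no molecular identifiers, from column-purified RNA, and cut with Tn5. The tables held 0 columns of other samples. GENCODE M21 gave a symbol to 55144 of the 55385 identifiers and none to 241, and 31671 genes had a count of 1 or more in some library.

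From these counts, CPM with TMM factors over all 12 libraries and TPM from the deposited exon lengths were computed. KO and Hetz were compared within each sex (6 libraries) by edgeR 4.0.16 under R 4.3.3 (quasi-likelihood F test, robust glmQLFit, filterByExpr with a minimum count of 10), adjusted by Benjamini-Hochberg over all genes tested, with a threshold of 0.05. The average of the sexes, the difference of their changes and the sexes themselves came from 1 fit of 12 libraries with 4 group means. Standard errors and 95% intervals were derived from the F statistic and its degrees of freedom. Alternatives were RLE and upper-quartile scaling, no filter, DESeq2 1.42.0, limma 3.58.1 voom, no robust estimation, the fit of 12 libraries for the changes within a sex, and leaving out each library; levels and marker sums were also rescaled. Scripts were tested on simulated counts. Animals are separate, and the edgeR p-values rest on the spread between 3 animals a group, moderated with that of other genes.

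The markers and lists were chosen with earlier results of these data known. The genes named were all 10 markers, Keap1 and Nfe2l2, of each list up to 4 called genes by smallest p or else the 1 with the smallest p, and for each called marker the 3 genes nearest in root-mean-square difference of log2(CPM + 1). Not every gene the rule allows is printed. Nfe2l2 had 463 ± 54.1 CPM in female KO and 414 ± 45.6 CPM in female Hetz libraries (edgeR adjusted p = 0.607), and 466 ± 12.9 and 419 ± 27.3 CPM in males (0.672). Pecam1, Pdgfra, Ptprc, Myf5 and Gm42922 were named outside the rule.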

Additional observations from a re-analysis of the deposited data

How the results depend on the processing

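The decreases of Cd34 and Spry1 in KO females kept their direction in all 13 alternatives, with log2 fold changes of -1.08 to -0.80 and -1.32 to -0.96, and passed in 12 and 11 of them; averaged over the sexes both passed in all 18. The count of markers called in females, 2, was 5 without a filter on low counts, 4 with DESeq2, and 0 (without KO166) to 4 (without Hetz165) when 1 library was left out, with 1 without KO188. Calcr passed only without the filter (edgeR adjusted p = 0.0152) and with DESeq2 (0.0239). In males the count of 0 became 1 without the filter, where Foxo3 rose (edgeR adjusted p = 0.0272), and the count for the interaction of genotype and sex became 3 without the filter, 2 with DESeq2 and 0 to 2 with 1 library left out, the 2 without Hetz165. Over all genes, the 319 calls in females became 1000 without the filter, 704 with DESeq2 and 144 to 1479 with 1 library left out; the 115 in males 375, 271 and 41 to 294; the 504 of the average 858, 820 and 318 to 931; and the 1 of the difference 358, 240 and 0 to 206. The highest of these counts in females, the average and the difference (1479, 931 and 206) were those without Hetz165. Some log2 fold changes near 0, and some of thinly counted other-cell genes, changed sign with 1 library left out. In females they ran from -0.18 to 0.10 for Pax7 and from -0.72 to 0.27 for Hba-a1. In males they ran from -0.08 to 0.08 for Vcam1, -0.30 to 0.24 for Calcr, -0.15 to 0.10 for Cdh15, -0.49 to 1.0 for Alas2 and -0.17 to 1.38 for Mylpf. In the average they ran from -0.12 to 0.09 for Fgfr4, -0.20 to 0.05 for Tenm4 and -0.08 to 1.99 for Hbb-bt, and for Foxo3 between the sexes from -0.13 to 0.02. In the fit of all 12 libraries the calls within a sex of Cdkn1a (0.053), Hspa1a (0.114), Txnip (0.121), H2-Ab1 (0.134) and Cd74 (0.16) in females and of Fgfr1 (0.0744) and Notch2 (0.116) in males were lost (edgeR adjusted p). The cause of these differences was not tested. No paired analysis was possible because each animal number occurs in 1 library and nothing in the labels links animals of different groups.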
